A study of Mus musculus with 2 samples.

Results

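The genes described here are 10 genes of the p53 pathway and of growth arrest, followed in hindlimb skeletal muscle of Syn4 transgenic mice and wild-type mice. They were chosen by name, as the probe sets whose platform annotation names Trp53, Mdm2, Cdkn1a, Gadd45a, Gadd45b, Gadd45g, Eda2r, Rb1, Ccng1 or Sesn1. Of these, 8 had a probe set annotated to that gene alone, 1 (Cdkn1a) had a probe set that the annotation also assigns to the long non-coding RNA 4930567H12Rik, and Trp53, which encodes p53 itself, was not analysed here. The genes were chosen with differences between these arrays already known, so the values below are a description. Each of the 9 measured genes had 1 probe set, out of 35556 probe sets on the array.

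Both groups were male C57BL/6J mice on standard chow. The Syn4 transgenic mice overexpress syntaxin 4, a plasma membrane SNARE protein that takes part in the fusion of GLUT4 vesicles with the muscle cell surface, and the wild-type mice lack the transgene. The promoter that drives the transgene, the ages of the mice and the number of mice per array were not stated in the labels. There was 1 array for Syn4 transgenic muscle and 1 for wild-type muscle, so each value is a single measurement without an error, no difference was tested and the spread between mice is unknown.

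The transcription factor p53 is held at a low level by MDM2, a ubiquitin ligase whose gene p53 itself switches on. When DNA is damaged or a cell is otherwise stressed, p53 accumulates and raises a set of targets, among them Cdkn1a, Gadd45a, Ccng1, Sesn1 and Eda2r. The CDKN1A protein, p21, blocks cyclin-dependent kinases, which keeps the RB1 protein unphosphorylated and bound to E2F factors, so that the cell does not enter S phase. In skeletal muscle, whose fibres no longer divide, Gadd45a and Cdkn1a are known for their response to denervation and disuse, and withdrawal of myoblasts from the cell cycle requires RB1.

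Promoter sequences from RefSeq (build GRCm38.p6), each from 250 bases before to 50 bases after an annotated start, were matched by symbol to 8 of the 9 measured genes (all but Rb1), in 10 windows. They are shown for the genes on which the results turn, the GADD45 family together with the members that differed most and the p53 regulator Mdm2. All run 5′ to 3′ along the gene, and capitals mark each match to the p53 half-site, a 10-base palindrome that p53 binds in pairs, and each TATAAA. The windows are chr17:29090729-29091028 (plus strand, the upstream of 2 windows of Cdkn1a), chrX:97377160-97377459 (minus strand, Eda2r), chr10:80929841-80930140 (plus strand, Gadd45b), chr13:51846425-51846724 (plus strand, Gadd45g), chr6:67037358-67037657 (minus strand, Gadd45a) and chr10:117710709-117711008 (minus strand, Mdm2).
Cdkn1a: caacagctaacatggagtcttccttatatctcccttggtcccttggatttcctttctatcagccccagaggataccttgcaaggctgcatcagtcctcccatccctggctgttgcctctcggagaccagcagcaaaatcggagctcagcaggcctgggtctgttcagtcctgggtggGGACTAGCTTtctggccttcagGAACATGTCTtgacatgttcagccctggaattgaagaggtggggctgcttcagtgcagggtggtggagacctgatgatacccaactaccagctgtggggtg
Eda2r: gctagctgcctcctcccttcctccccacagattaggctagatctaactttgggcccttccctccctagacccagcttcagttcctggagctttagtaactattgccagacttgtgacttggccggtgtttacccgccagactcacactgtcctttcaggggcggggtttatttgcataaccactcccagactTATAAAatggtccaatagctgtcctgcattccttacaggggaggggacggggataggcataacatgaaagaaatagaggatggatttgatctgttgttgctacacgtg
Gadd45b: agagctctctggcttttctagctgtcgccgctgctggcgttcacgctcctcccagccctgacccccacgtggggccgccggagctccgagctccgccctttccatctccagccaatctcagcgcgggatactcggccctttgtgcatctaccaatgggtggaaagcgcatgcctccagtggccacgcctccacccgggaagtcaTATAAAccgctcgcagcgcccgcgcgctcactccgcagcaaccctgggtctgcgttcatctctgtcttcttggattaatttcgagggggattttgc
Gadd45g: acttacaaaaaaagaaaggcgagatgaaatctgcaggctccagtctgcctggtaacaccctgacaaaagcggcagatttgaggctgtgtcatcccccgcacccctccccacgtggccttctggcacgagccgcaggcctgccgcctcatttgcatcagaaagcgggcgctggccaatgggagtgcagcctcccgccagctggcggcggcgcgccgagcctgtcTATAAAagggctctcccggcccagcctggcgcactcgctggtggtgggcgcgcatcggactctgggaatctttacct
Gadd45a: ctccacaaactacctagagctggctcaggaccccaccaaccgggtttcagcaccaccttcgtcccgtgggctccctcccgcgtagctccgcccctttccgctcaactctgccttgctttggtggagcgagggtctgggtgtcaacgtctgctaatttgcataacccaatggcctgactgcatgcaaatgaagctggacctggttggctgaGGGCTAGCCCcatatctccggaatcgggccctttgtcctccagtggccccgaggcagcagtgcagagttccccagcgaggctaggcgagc
Mdm2: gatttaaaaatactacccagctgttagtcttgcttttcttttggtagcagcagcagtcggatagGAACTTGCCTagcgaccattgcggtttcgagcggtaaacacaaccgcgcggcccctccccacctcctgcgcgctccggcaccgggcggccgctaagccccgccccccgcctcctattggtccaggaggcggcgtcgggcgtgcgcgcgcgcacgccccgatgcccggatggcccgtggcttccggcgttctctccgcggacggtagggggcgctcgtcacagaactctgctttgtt

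The p53 half-site was found in 5 of the 10 windows, against 8.36% of all 32851 windows of the same length. The genes were chosen by name as genes of the p53 pathway, and Cdkn1a and Sesn1 have 2 windows each. Nothing is therefore read from the comparison of these shares. The half-site was present for Mdm2, Gadd45a and Ccng1, in the upstream window of Cdkn1a, where it matched at 2 places that begin 73 and 51 bases before the start, and in 1 of the 2 windows of Sesn1. The other window of Cdkn1a, which is not printed, held no match to it. The windows of Eda2r, Gadd45b and Gadd45g also held no half-site, and TATAAA was found in those 3 alone of the 10 (13.6% of all windows), beginning 58, 46 and 27 bases before the start. The other motifs searched on both strands were the NF-kB site, in none of the 10 windows (4.51% of all), AP-1 (TGANTCA) in none (7.81%), the CRE (TGACGTCA) in none (1.79%), the FOXO site (GTAAACA) in 3 (3.65%), the GC box (GGGCGG) in 7 (35.7%) and the E2F site (TTTNNCGC) in 1 (5.17%). In the window of Mdm2 the E2F match overlapped the FOXO match. These matches describe the letters of the windows only, and binding was not measured.

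The muscle identity of both arrays and the transgene were checked first. All 15 markers of skeletal muscle passed the level filter, a log2 intensity of 6.79 or more in the brighter array, and differed by -0.15 (Myh2) to 0.36 (Myh1), with creatine kinase (Ckm) at 14.40 in Syn4 transgenic and 14.43 in wild-type muscle. Stx4a, the gene of syntaxin 4, was at 12.20 in Syn4 transgenic and 8.84 in wild-type muscle. Over all 19938 genes the median difference was 0.00, and it was 0.03 over the 9974 that passed the filter. All values are log2 intensities as deposited, and all differences are Syn4 transgenic minus wild type.

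Of the 8 genes with a probe set of their own, all of which passed the level filter, 6 were higher and 2 lower in Syn4 transgenic muscle, with a median difference of 0.19. Of all genes that passed the filter, 53.5% were higher there. By the rule of size, a difference of at least 1.5-fold (0.58 on the log2 scale), 2 were higher, Eda2r and Rb1, and 1 was lower, Gadd45b. Among all genes that passed the filter, 2.66% were higher and 1.71% lower by that rule, 4.37% in either direction. These genes were chosen with their differences known, so nothing is read from the comparison of those shares. Just inside the rule lay Rb1 at 0.67 and just outside it Gadd45g at -0.46.

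**Figure D1:**
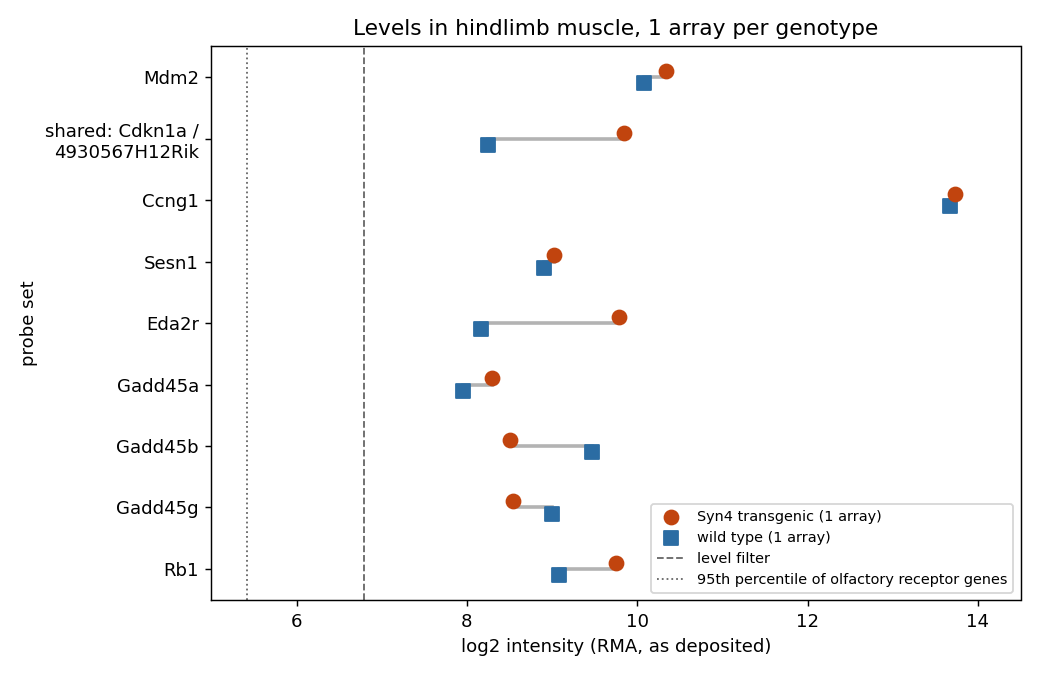
Log2 intensity (horizontal axis, as deposited) of the 9 measured probe sets in Syn4 transgenic muscle (circles) and wild-type muscle (squares), 1 array each, with lines at the level filter of 6.79 and at the 95th percentile of olfactory receptor genes, 5.42. The widest gaps are those of Eda2r and of the probe set shared by Cdkn1a and 4930567H12Rik, both higher in Syn4 transgenic muscle, and that of Gadd45b, lower there.

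Eda2r had the largest difference of the genes with their own probe set. It encodes the receptor for the A2 form of ectodysplasin, a member of the TNF receptor superfamily that signals to NF-kB, and its gene lies on the X chromosome. Its log2 intensity was 9.79 in Syn4 transgenic muscle and 8.16 in wild-type muscle, a difference of 1.63 or 3.10-fold. Among the 500 genes nearest to it in mean level, 2 had a difference as large in either direction. Its nearest measured neighbours in the annotation did not show a difference of that size, with Yipf6 at 0.09 on one side and Pgr15l at -0.43 on the other, the second of them under the level filter.

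Among 25 measured genes of the TNF receptor superfamily, a list added after the values were seen, Eda2r had the highest difference, followed by Tnfrsf19 at 0.41 and the p53 target Fas at 0.40. Only Cd27, a receptor of lymphocytes, also passed 1.5-fold, at 7.48 in Syn4 transgenic and 8.23 in wild-type muscle (-0.75). The median of the family was 0.01. The list of EDA receptors, ligand and signalling, which leaves out Eda2r, had 8 of 12 measured genes above 0 and 4 below, a median of 0.22 and no gene past 1.5-fold among the 9 that passed the filter. The ligand gene Eda was at 7.17 in Syn4 transgenic and 6.98 in wild-type muscle, a difference of 0.19. Edar, the receptor for the A1 form, was at 6.08 in Syn4 transgenic and 5.71 in wild-type muscle, both under the level filter. Highest in that list was Nfkb2, which encodes the p100 precursor of the non-canonical NF-kB pathway (8.33 in Syn4 transgenic against 7.81 in wild-type muscle, 0.52), and lowest was Tab2, an adaptor of the TAK1 kinase, at -0.11. Map3k14, the kinase NIK that triggers processing of p100, differed by 0.32 and its partner Relb by 0.26. Map3k14 passed the level filter only in Syn4 transgenic muscle, at 6.90 against 6.58 in wild-type muscle. The kinase gene Ikbkb differed by 0.36. Below 0 with Tab2 were Nfkbia (-0.10), Traf1 (-0.07, under the level filter) and Traf2 (-0.06).

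The probe set shared by Cdkn1a and 4930567H12Rik differed nearly as much as Eda2r. It was at 9.84 in Syn4 transgenic muscle and 8.25 in wild-type muscle, a difference of 1.59 or 3.01-fold, and 3 of the 500 genes nearest in mean level differed by as much. The annotation lists 9 accessions for it. The RefSeq gene table held 2 of them, and both are transcripts of Cdkn1a on chromosome 17, whereas 4930567H12Rik lies on chromosome 8 and none of its RefSeq transcripts is listed. How the signal divides between these genes was not tested, and the probe set was left out of the counts above. The genes next to Cdkn1a were near equal, with Srsf3 at -0.14 and Rab44, under the level filter, at 0.21.

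The other p53 targets and regulators among the members were within 1.5-fold. Mdm2, the ubiquitin ligase that holds p53 down and is itself a p53 target, was at 10.34 in Syn4 transgenic and 10.08 in wild-type muscle, a difference of 0.26 (1.20-fold). Of the 500 genes nearest to Mdm2 in level, 132 differed by at least as much. Mdm4, the related inhibitor of p53, went the other way at 8.22 in Syn4 transgenic and 8.36 in wild-type muscle (-0.14).

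Ccng1, which encodes cyclin G1, a p53 target that recruits a phosphatase to MDM2, was bright on both arrays, at 13.73 in Syn4 transgenic and 13.67 in wild-type muscle. The difference of 0.06 was matched or exceeded by 378 of the 500 genes nearest in level. Its relative Ccng2, which responds to FOXO factors, was at 8.06 in Syn4 transgenic and 7.78 in wild-type muscle (0.28).

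Sesn1 encodes sestrin 1, which dampens mTORC1 when leucine is scarce. It was at 9.02 in Syn4 transgenic and 8.90 in wild-type muscle, a difference of 0.12, and 288 of the 500 genes nearest in level differed by at least as much. Of the other sestrins, Sesn3 was at 9.37 in Syn4 transgenic and 8.82 in wild-type muscle (0.55, just short of 1.5-fold), and Sesn2 was at 6.55 in Syn4 transgenic and 6.39 in wild-type muscle, under the level filter. The genes of mTORC1 and of the GATOR complexes, through which sestrins act, had 9 of 17 above 0 and 8 below, with a median of 0.01 and none past 1.5-fold. They ran from Wdr24, a GATOR2 subunit, at -0.17 to Prkaa1, a catalytic subunit of AMP kinase, at 0.39.

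The GADD45 genes did not share a direction. They encode small acidic proteins without known enzyme activity that bind PCNA, the CDK1 complex, p21 and the kinase MAP3K4, and they differ in what induces them. Gadd45a, the member that p53 and ATF4 induce, was at 8.30 in Syn4 transgenic muscle and 7.95 in wild-type muscle, a difference of 0.35 or 1.27-fold. Gadd45b, which responds to TGF-beta and NF-kB, was at 8.50 in Syn4 transgenic muscle and 9.47 in wild-type muscle, a difference of -0.97, or 1.96-fold lower. Gadd45g, which cytokines induce, was at 8.54 in Syn4 transgenic muscle and 9.00 in wild-type muscle, a difference of -0.46, or 1.38-fold lower.

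Gadd45b was thus the one of the 3 past 1.5-fold, and of the 500 genes nearest to each in level, 7 differed by as much as Gadd45b, 40 by as much as Gadd45g and 65 by as much as Gadd45a. Both genes next to Gadd45b in the annotation were near equal, with Lmnb2 at -0.05 and Gng7, under the level filter, at -0.15. Between Gadd45a and Gadd45b the promoter windows shown above differ in the p53 half-site, present in that of Gadd45a, and in TATAAA, present in that of Gadd45b. The window of Eda2r, which differed by 1.63, also held TATAAA and no p53 half-site. Whether these motifs bear on the differences was not tested.

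Genes of GADD45 partners and of the stress kinases were close to their wild-type levels. Of 17 measured, 9 were above 0, 7 below and 1 at 0, with a median of 0.03, and none of the 16 that passed the filter reached 1.5-fold. Map2k6, an activator of p38 kinase, was lowest at 9.45 in Syn4 transgenic and 9.99 in wild-type muscle (-0.54), and Foxo3, a transcription factor of the atrophy programme, was highest at 8.19 in Syn4 transgenic and 7.79 in wild-type muscle (0.40). Map3k4, the kinase that GADD45 proteins activate, differed by 0.13, Pcna, the sliding clamp of DNA replication and repair, by 0.03 and Atf4, an activator of Gadd45a in muscle, by -0.17.

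**Figure D2:**
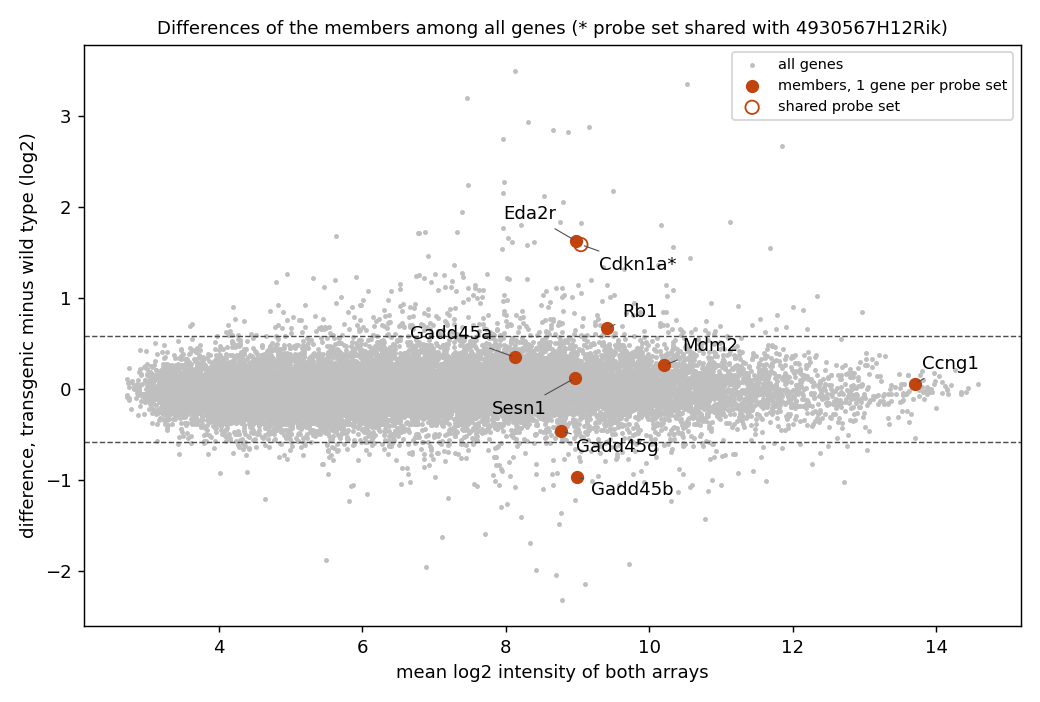
Difference, Syn4 transgenic minus wild type (vertical axis, log2), against mean log2 intensity of both arrays (horizontal axis) for 19938 genes (grey) and the 9 measured probe sets of the p53 target, GADD45 and arrest genes (coloured, open for the shared one), with dashed lines at 1.5-fold. Eda2r at 1.63 and the shared probe set at 1.59 lie far above the band of most genes, Gadd45b at -0.97 lies below it, and Ccng1 at 0.06 and Sesn1 at 0.12 lie within it.

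Rb1 was higher in Syn4 transgenic muscle by slightly more than the rule of size. The retinoblastoma protein holds E2F factors inactive in cells that have left the cycle. Its log2 intensity was 9.75 in Syn4 transgenic muscle and 9.08 in wild-type muscle, a difference of 0.67 or 1.59-fold, and 13 of the 500 genes nearest in level differed by as much. Lpar6, a lysophosphatidic acid receptor gene whose annotated span overlaps that of Rb1, was at 7.20 in Syn4 transgenic and 7.38 in wild-type muscle (-0.18). The related pocket protein genes did not share the difference of Rb1. Rbl2, which encodes p130, was at 9.29 in Syn4 transgenic and 9.30 in wild-type muscle, and Rbl1, which encodes p107, was at 5.62 in both, under the level filter.

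Among 20 measured genes of the RB family, E2F factors and the DREAM complex, 9 were above 0, 10 below and 1 at 0, with a median of -0.005. E2f3, an activator of S phase genes, was the highest and the one past 1.5-fold, at 8.90 in Syn4 transgenic and 8.27 in wild-type muscle (0.63). It has 2 probe sets, and its difference was 0.48 with both averaged and 0.57 with quantile normalization repeated, under 1.5-fold. The lowest, Lin9 at -0.32, was under the filter. Of the 7 CDK inhibitor genes other than Cdkn1a, 3 were above 0, 3 below and 1 at 0, with a median of 0.00 and none past 1.5-fold. Cdkn1b, which encodes p27, was at 9.52 in Syn4 transgenic and 9.57 in wild-type muscle (-0.05). Cdkn1c, which encodes p57, was the lowest at -0.28, and Cdkn2d, which encodes p19INK4D, the highest at 0.13. Cdkn2a, the senescence marker that encodes p16INK4A and ARF, was at 6.06 on both arrays, under the level filter.

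Of 13 genes of G1 cyclins and their kinases, 7 were above 0, 5 below and 1 at 0, with a median of 0.02. Ccne2, a cyclin that drives entry into S phase, was past 1.5-fold at 7.11 in Syn4 transgenic and 7.72 in wild-type muscle (-0.61), and Ccnd3, the D-type cyclin of differentiated muscle, was highest at 0.31. Of 16 proliferation genes, 15 were under the level filter on both arrays, so little can be read from their differences. The list ran from Cdc6, a DNA replication licensing factor, at -0.77 to Ccna2, cyclin A2, at 0.66, both under the filter, with a median of -0.06.

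Among 20 genes of the p53 family and its upstream control, 11 were above 0 and 9 below, with a median of 0.08. Trp63, which encodes the p53 relative p63, was the one past 1.5-fold, at 8.90 in Syn4 transgenic and 7.69 in wild-type muscle, a difference of 1.21 or 2.31-fold. The next, Prkdc, the catalytic subunit of the DNA repair kinase DNA-PK, was at 0.54, and the lowest, the p53 antagonist Twist1, was at -0.23 and under the filter.

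The wider set of p53 targets included genes under the level filter, and little can be read from the differences of those. Of 19 target genes of apoptosis and survival, 13 passed the filter. Over all 19, 11 were above 0 and 8 below, with a median of 0.11. Perp, a membrane protein of desmosomes and a target of both p53 and p63, was past 1.5-fold at 7.45 in Syn4 transgenic and 6.67 in wild-type muscle (0.78), the second of these under the level filter. Siva1, a pro-apoptotic gene, was lowest at -0.33. Of 21 target genes of repair, metabolism and growth control, 16 passed the filter and none of them was past 1.5-fold. Over all 21, 14 were above 0 and 7 below, with a median of 0.08. They ran from Polk, a translesion DNA polymerase, at -0.36 to Sesn3.

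Over the 10 pathway lists together, 3 of the 115 genes that passed the filter were higher by 1.5-fold (Trp63, Perp and E2f3) and 1 lower (Ccne2). These shares, 2.61% and 0.87%, stand beside 2.66% and 1.71% of all genes that passed it. Of all 162 measured genes of these lists, 87 (53.7%) were above 0, 71 below and 4 at 0. Of all genes 46.9% were above 0, and of those that passed the filter 53.5%. The list genes had a median of 0.02, beside 0.00 for all genes.

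**Figure D3:**
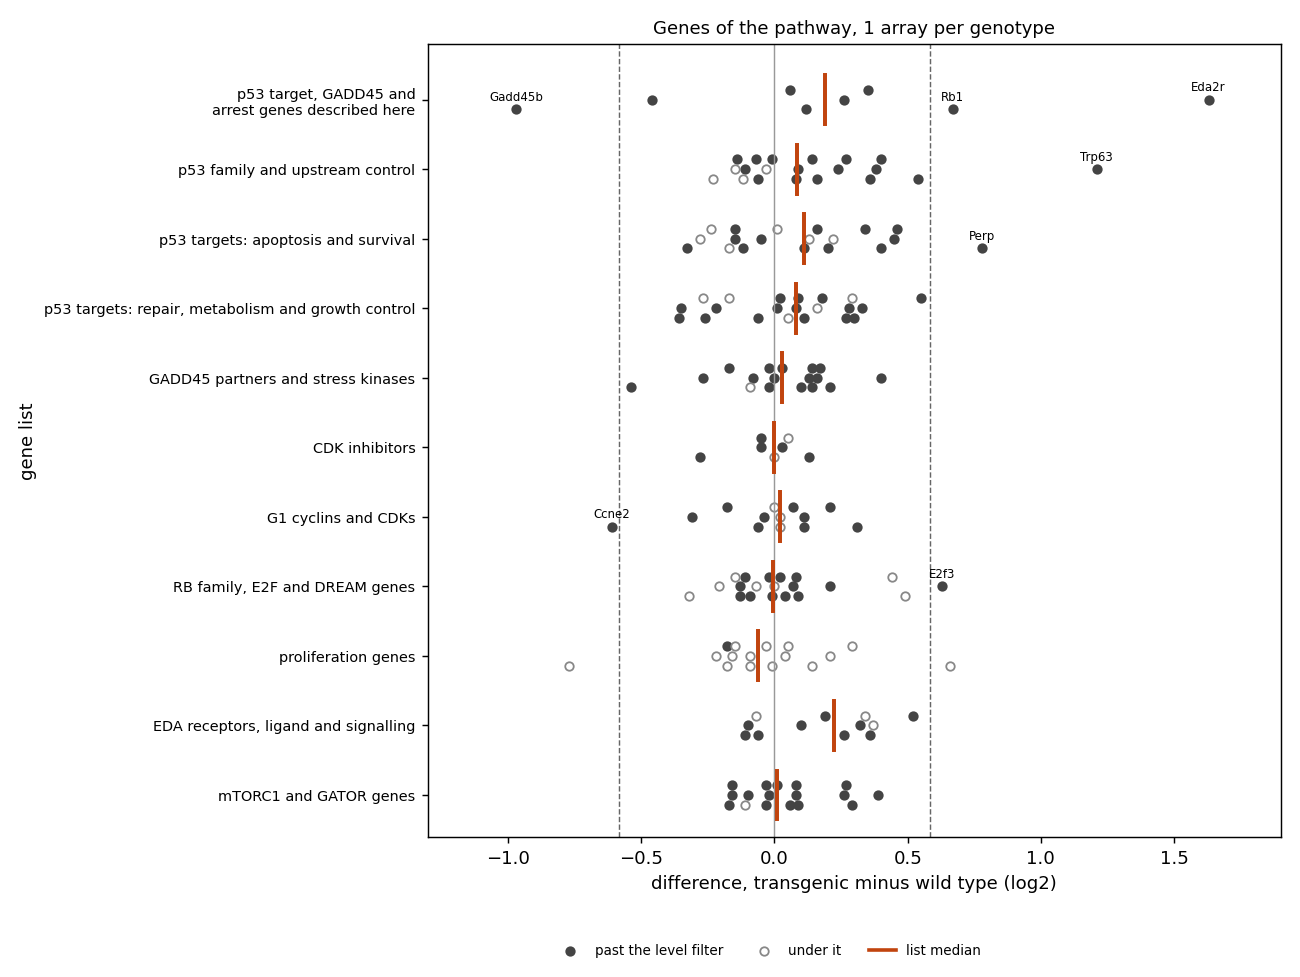
Difference, Syn4 transgenic minus wild type (horizontal axis, log2), of each measured gene in the list of p53 target, GADD45 and arrest genes and in 10 pathway lists (rows), with the list median as a bar, dashed lines at 1.5-fold and open circles for genes under the level filter. Most genes of the pathway lists lie between the dashed lines, and named genes are those past them that passed the filter.

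Some markers of other cells and some immediate early genes differed by at least 1.5-fold between the same arrays. White adipocyte markers were higher in Syn4 transgenic muscle, 9 of 11 above 0 and 6 past 1.5-fold, with a median of 0.86, from Aqp7 at -0.24 to Lep, the hormone leptin, at 3.20. The others past 1.5-fold were Adipoq (2.06), Cidec (1.81) and Plin1 (1.62), both of lipid droplets, Retn, the hormone resistin (1.15), and the amino acid transporter gene Slc7a10 (0.86). Lep and Slc7a10 passed the level filter only in Syn4 transgenic muscle, with wild-type values of 5.86 and 6.12. The summed linear intensity of the 11 markers was 8728 in Syn4 transgenic and 6290 in wild-type muscle, 1.39-fold. Adipoq, which encodes the adipocyte hormone adiponectin, was at 9.83 in Syn4 transgenic and 7.77 in wild-type muscle, so signal of this defining marker was present on both arrays.

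Slow fibre markers were lower, 10 of 10 below 0 and 8 past 1.5-fold, with a median of -0.75 and a summed intensity of 36739 in Syn4 transgenic and 61104 in wild-type muscle. Past 1.5-fold were the myosin genes Myl3 (-1.02), Myh7 (-0.82) and Myl2 (-0.63), the troponin genes Tnnc1 (-1.01), Tnni1 (10.37 in Syn4 transgenic against 11.37 in wild-type muscle) and Tnnt1 (-0.90), the calcium pump gene Atp2a2 (-0.67) and the tropomyosin gene Tpm3 (-0.63). Casq2, a calcium store protein, was nearest to 0 at -0.18.

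Immediate early genes can respond to handling within minutes, and whether handling differed between the mice was not tested. Of these genes, 11 of 15 were above 0 and 6 past 1.5-fold, with a median of 0.26. Their summed intensity was 7483 in Syn4 transgenic and 5944 in wild-type muscle. The highest was Egr1 (8.65 in Syn4 transgenic against 7.44 in wild-type muscle, 1.21), and the lowest Nr4a1 at -0.21. Ccn1 (1.15), Egr2 (1.08), Fos (0.82), Atf3 (0.74) and Nr4a3 (0.72) were the others past 1.5-fold. Egr2, Fos and Nr4a3 passed the level filter only in Syn4 transgenic muscle, and their wild-type values were under it.

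Of 12 satellite cell and denervation markers, 9 were above 0 and 2 past 1.5-fold, Ncam1 at 1.14 and Runx1 at 1.04, with a median of 0.29 and a summed intensity of 5981 in Syn4 transgenic and 4442 in wild-type muscle. Myog, which encodes the denervation-induced factor myogenin, was at 6.22 in both and under the filter, and Pax7, which defines satellite cells, was lowest at -0.33. Fibroblast markers had 8 of 9 above 0 and a median of 0.23, from Thy1 at -0.15 to Lum, the matrix proteoglycan lumican, which was past 1.5-fold at 9.61 in Syn4 transgenic and 8.87 in wild-type muscle (0.74). Macrophage markers had 8 of 10 above 0 and a median of 0.14, from Adgre1 at -0.12 to C1qa at 0.25, and endothelial markers 3 of 8 and a median of 0.00, from Kdr at -0.44 to Vwf at 0.32, with none past 1.5-fold in either list. Summed intensities of these lists were 16812, 2792 and 6189 in Syn4 transgenic muscle, against 14594, 2566 and 6516 in wild-type muscle. The part of these shifts in the differences of Eda2r, the shared probe set, Gadd45b, Rb1, Trp63 and the other genes was not tested. In whole muscle, fewer cells of a type and less RNA per cell cannot be told apart.

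**Figure D4:**
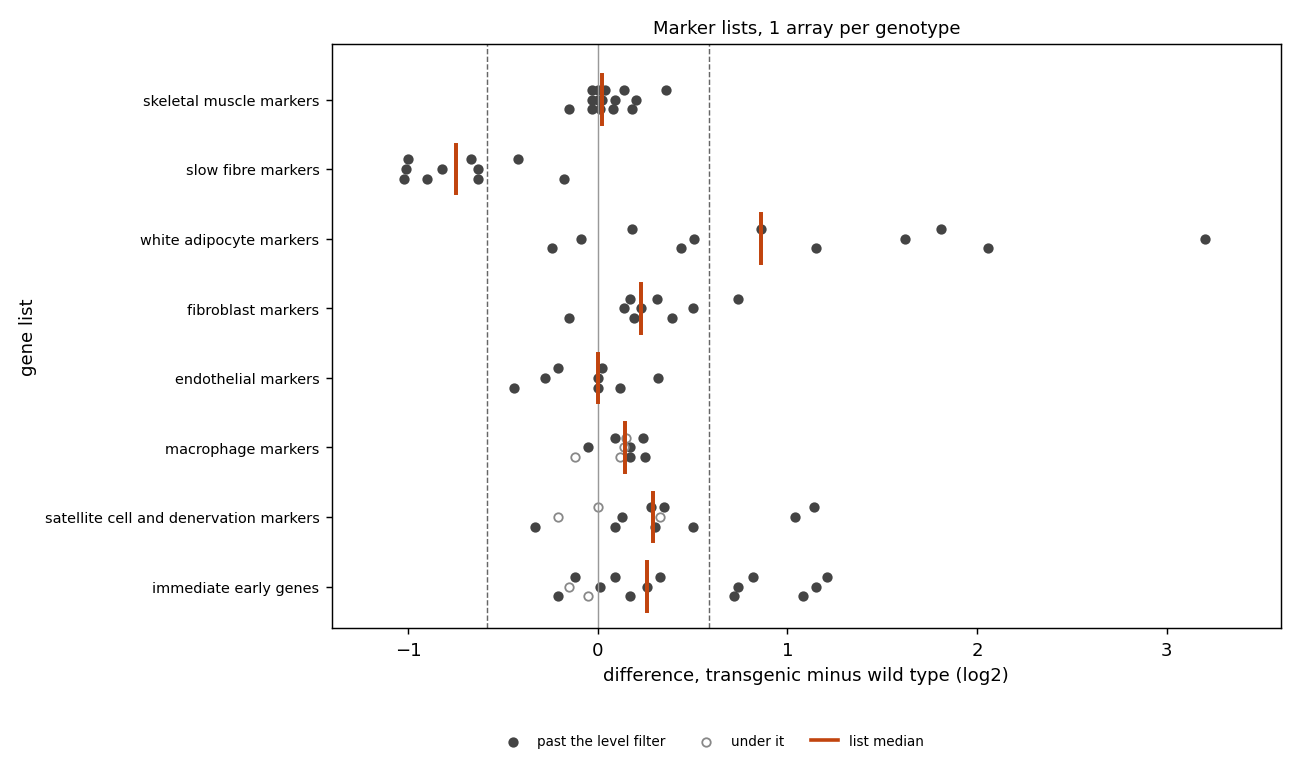
Difference, Syn4 transgenic minus wild type (horizontal axis, log2), of each measured gene in 8 marker lists (rows), with the list median as a bar, dashed lines at 1.5-fold and open circles for genes under the level filter. Skeletal muscle markers lie near 0, slow fibre markers lie below 0 with a median of -0.75, and white adipocyte markers have the highest median, 0.86.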

How the data were processed

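RNA of hindlimb muscle was measured on 1 array per genotype. The deposited values are log2 intensities, to 2 decimals, that the authors made with RMA in Partek, as named in the submitters' processing notes. Neither version nor steps are stated. RMA tends to shrink large ratios and makes no call of signal over background. The median was 6.06 on both arrays. Precision is limited by the number of arrays.

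Probe sets were named through the platform annotation, which may be dated: 21789 probe sets carried 1 symbol, 1621 several and 12146 none. Through Entrez identifiers, 21698 of the 21789 were found in a RefSeq gene table (GRCm38.p6). These gave 19938 genes, the brightest probe set standing for each of the 999 with several. Differences are Syn4 transgenic minus wild type. Counts of 1.5-fold differences used genes whose brighter value reached the median of that value over all genes, 6.79. The 500 genes nearest in mean level are a description, not a test. The members, the gene lists and the rules were chosen with earlier results of these data known. The text names the 10 members and their close relatives, Stx4a, and of the pathway and marker lists the genes past 1.5-fold that passed the level filter and the highest and lowest gene. Other genes named (neighbours, pathway components and markers) were chosen after their values were seen. With 2 arrays a pattern is a single difference, so no gene was named for a like pattern. List genes without a value here were not analysed. The alternatives were other level filters, a 2-fold threshold, averaged probe sets, median centring, loess (span 0.3, 3 iterations) and repeated quantile normalization. Python 3.11.15 with pandas 2.3.3 and statsmodels 0.14.6 was used.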

Additional observations from a re-analysis of the deposited data

Results flagged for a closer look

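The probe set annotated to both Cdkn1a and 4930567H12Rik lies outside the counts of genes, and its signal was higher in Syn4 transgenic muscle, at 9.84 against 8.25 in wild-type muscle. The difference was 1.59 as deposited and 1.54 after quantile normalization was repeated. With 1 array per genotype it was not tested.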

How the results depend on the processing

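No result is backed by replicate arrays, and the dim end of the scale, where RMA gives no call above background, limits the proliferation genes and other genes under the level filter. Averaging probe sets and median centring could not move the 8 genes' differences, since each gene had 1 probe set and both arrays had the same median. With loess and with quantile normalization each difference kept its sign and moved by at most 0.055. The lowest values were 1.58 for Eda2r and 0.63 for Rb1, and Gadd45b ran from -1.01 to -0.97. The counts of 2 higher and 1 lower were the same with loess and with quantile normalization. The other level filters could not change them, since the dimmest of these values, 7.95 for Gadd45a in wild-type muscle, lies above each of them. At a 2-fold threshold, 1 was higher (Eda2r) and 0 were lower. With the shared probe set counted, an alternative chosen after seeing the data, 3 were higher and the median was 0.26. Without a level filter, 2 pathway list genes in place of 1 were lower, the added one being Cdc6. Pathway list genes past 1.5-fold upwards numbered 2 in place of 3 with averaged probe sets or quantile normalization (E2f3 was lost), and 4 without a level filter. Medians of the pathway lists moved by less than 0.1 with averaged probe sets, loess, quantile normalization, means in place of medians and genes of other lists left out, and 6 of these values changed sign. A single other probe set could not be tried, since each member had 1. No paired analysis was possible because there is 1 array per group.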
